A study of Mus musculus with 8 samples.

Results

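Basement membrane genes were examined in RNA sequencing of RFB, a mouse kidney line labelled as fibroblast. The set holds 34 genes for collagen IV, laminins, nidogens, proteoglycans and associated proteins, each found by its symbol among the 22274 genes of the deposited table. Of the 8 libraries, 4 are labelled ad-CRE and 4, the controls, ad-GFP, names read here as adenoviruses carrying the Cre recombinase and green fluorescent protein. The cells of all 8 were treated with TGF-β, so no library shows the genes without that cytokine. The series title and design name Suv39h1, a histone H3 lysine 9 methyltransferase, as the gene targeted, and the design text calls the cells knockdown derivatives. Neither the allele on which Cre would act nor the dose and time of the treatments is stated in the labels. Nor do they say whether replicates came from separate cultures, so the p-values cover library-to-library spread that may be technical.

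A basement membrane is a thin sheet of matrix beneath epithelia and around blood vessels, muscle and fat cells. Laminin heterotrimers, each of an alpha, a beta and a gamma chain, assemble on the cell surface, and a covalently crosslinked network of collagen IV forms beside them. Nidogens and the heparan sulfate proteoglycan perlecan join these networks, and agrin links laminin to dystroglycan on the cell surface. In the kidney, the mature glomerular filter holds collagen IV made of the Col4a3, Col4a4 and Col4a5 chains, whereas the Col4a1 and Col4a2 chains are found in most basement membranes.

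The collagen IV genes lie in head-to-head pairs, each pair starting close together on opposite strands, and the text below takes them pair by pair. The stretch around the starts of the first pair is shown because both genes fell, and that of the second because both rose. Upstream sequence is shown for Nid1 and Npnt, which had the largest fall and the largest rise among the members with a mean of at least 10 CPM (reads of a gene relative to all counted reads of its library, after TMM scaling). All are from RefSeq, build GRCm38.p6, read 5′ to 3′. The Col4a1 and Col4a2 stretch is chr8:11312797-11312834, plus strand, and its capitals mark the 22 bases that belong to both transcripts. The Col4a4 and Col4a3 stretch is chr1:82586840-82586930, plus strand, and its capitals mark the 71 bases between the starts of the genes, the Col4a3 start being that of GENCODE M21. The Nid1 stretch is chr13:13437352-13437550, plus strand, the 199 bases before its GENCODE start, and the Npnt stretch is chr3:132950292-132950541, minus strand, the 250 bases before its start. Capitals in these last sequences mark GC box (GGGCGG) or CCAAT letters on either strand.
Col4a1 and Col4a2: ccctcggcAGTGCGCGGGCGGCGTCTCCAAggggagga
Col4a4 and Col4a3: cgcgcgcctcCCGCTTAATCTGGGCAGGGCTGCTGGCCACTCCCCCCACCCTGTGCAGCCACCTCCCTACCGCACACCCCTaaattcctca
Nid1: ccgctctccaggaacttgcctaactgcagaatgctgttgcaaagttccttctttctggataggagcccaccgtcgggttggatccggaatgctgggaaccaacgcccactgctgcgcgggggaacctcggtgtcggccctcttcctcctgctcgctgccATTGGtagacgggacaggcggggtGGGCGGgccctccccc
Npnt: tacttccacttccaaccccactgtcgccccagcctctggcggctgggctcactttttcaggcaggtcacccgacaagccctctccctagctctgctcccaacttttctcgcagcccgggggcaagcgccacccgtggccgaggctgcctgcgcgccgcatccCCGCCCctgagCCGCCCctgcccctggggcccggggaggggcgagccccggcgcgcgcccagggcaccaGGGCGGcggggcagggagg

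The GC box letters were found 1 time in the Col4a1 and Col4a2 stretch, 0 times in the Col4a4 and Col4a3 stretch, 1 time in that of Nid1 and 3 times in that of Npnt. The CCAAT letters were found 1 time in the Nid1 stretch and 0 times in the other 3, and the TATAAA letters in none of the 4. Of the 34 members, 24 matched a RefSeq promoter window of 300 bases, some with more than 1. Of their 31 windows, 18 hold the GC box letters on either strand, against 35.7% of 32851 windows of all genes. The CCAAT letters are in 12 and the TATAAA letters in 0 of the 31, against 37.4% and 13.6% of all windows. The member windows had a median of 16 CG dinucleotides, against 7 in all windows. These are descriptions of letters and not of bound factors.

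Total counts were 17572152 to 22297598 per library in ad-CRE and 15998257 to 20920828 in ad-GFP, of which the members took 0.917% to 0.95% and 0.853% to 0.899%. Suv39h1 had 32.3, 32.9, 33.4 and 31.6 CPM in ad-CRE and 37.2, 43.6, 44.1 and 41.3 CPM in ad-GFP, a log2 fold change of −0.35 with an edgeR adjusted p of 8.65e-07. Smarca4, the gene of a chromatin remodelling ATPase, averaged 34.3 ± 3.20 CPM in ad-CRE and 288 ± 11.1 CPM in ad-GFP (SD, n = 4 each), 8.40-fold lower (log2 −3.07, edgeR adjusted p = 3.82e-31). The gene named as the target was thus 1.27-fold lower in ad-CRE, far less than Smarca4, which the labels do not name. Which gene the ad-CRE libraries lost cannot be settled from the labels, so each difference below is one between libraries labelled ad-CRE and ad-GFP and is not assigned to Suv39h1. The groups differed widely: with edgeR's quasi-likelihood test and Benjamini-Hochberg adjustment over 13702 genes, 73.1% of genes passed an adjusted p of 0.05. A gene is said below to rise or fall in ad-CRE where it passed that threshold. Of 12 fibroblast markers, 10 were tested, of which 1 rose and 9 fell, and their summed level was 788 to 847 CPM in ad-CRE and 1857 to 1954 in ad-GFP. Vim was at 693 CPM in ad-CRE and 1614 in ad-GFP and Col1a1 at 59.7 and 170 (means), and Lum had 1 read in all. Of 16 tubular epithelial markers, 13 were tested, of which 9 rose and 3 fell, with summed levels of 5326 to 5507 CPM in ad-CRE and 2484 to 2751 in ad-GFP. Among those that rose, Krt8 was at 1983 CPM in ad-CRE and 744.8 in ad-GFP, Krt18 at 957 and 459, and Cldn4 at 945 and 344 (means), the first pair being keratins of simple epithelia in general. The 3 that fell, named after their values were seen, are genes of kidney tubule cells: Cdh16 (log2 fold change −0.66, with means of 138 CPM in ad-CRE and 218 in ad-GFP), Lrp2 (−0.55) and Slc12a1 (−2.13, from 56 and 228 reads). Umod (log2 fold change 3.31, from 123 reads in ad-CRE and 11 in ad-GFP), Aqp1 (0.68) and Pax8 (0.12), also kidney genes, were among those that rose. They too were named after their values were seen. Umod passed the filter on low counts only through ad-CRE. The fibroblast marker Dcn, with 28 reads in ad-CRE and 286 in ad-GFP, passed it only through ad-GFP. The place of both in these counts is thus not independent of the difference. Aqp2 had 0 reads in all libraries, and Slc34a1 had 1 and 2 reads in the groups. Endothelial markers fell in 9 of 9 tested (10 listed), with summed levels of 88.0 to 97.8 and 206.5 to 221.5 CPM, and smooth muscle and pericyte markers in 5 of 7 tested (8 listed), with 1 that rose and 1814 to 1911 against 2785 to 2952 CPM. Of 7 podocyte markers, 5 were tested, 1 rose and 3 fell (132.8 to 142 CPM in ad-CRE, 109.8 to 113.2 in ad-GFP). Of 8 leukocyte markers, 6 were tested, 0 rose and 5 fell (154.8 to 162.7 and 216.6 to 249.2 CPM), with Cd3e at 0 reads. Thus mesenchymal and epithelial transcripts were both present and moved between the groups alongside the basement membrane genes. The part of these markers in the results below was not tested, and in bulk RNA fewer cells of a type and less RNA per cell cannot be told apart.

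Of the 34 members, 32 passed the filter on low counts. Of these 18 rose and 10 fell in ad-CRE and 4 did not pass (Col4a5, Col4a6, Pxdn, Ntn4), which is 87.5% called where 73.1% of all genes were. By direction, the background was 36.8% of genes that rose and 36.3% that fell. The median log2 fold change of the 32 was 0.35, against 0 for all genes tested. Against a fold change of 1.2 (glmTreat in edgeR), 16 rose and 7 fell, where 43.4% of all genes passed, 20.6% that rose and 22.8% that fell. A change of at least 2-fold was found in 5 that rose (Lama1, Lama3, Lamc3, Npnt, Hmcn1) and 3 that fell (Lama2, Nid1, Nid2), where 4.84% and 9.43% of all genes passed that mark. Of these, Lama2 (41 reads in ad-CRE, 95 in ad-GFP) and Lamc3 (132 and 39) passed the filter only through the group where they are higher. Their place in this count is thus not independent of the difference. Smoc1 and Frem1 did not pass the filter, with 33 and 6 reads in the ad-CRE libraries together and 39 and 9 in the ad-GFP libraries.

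**Figure D1:**
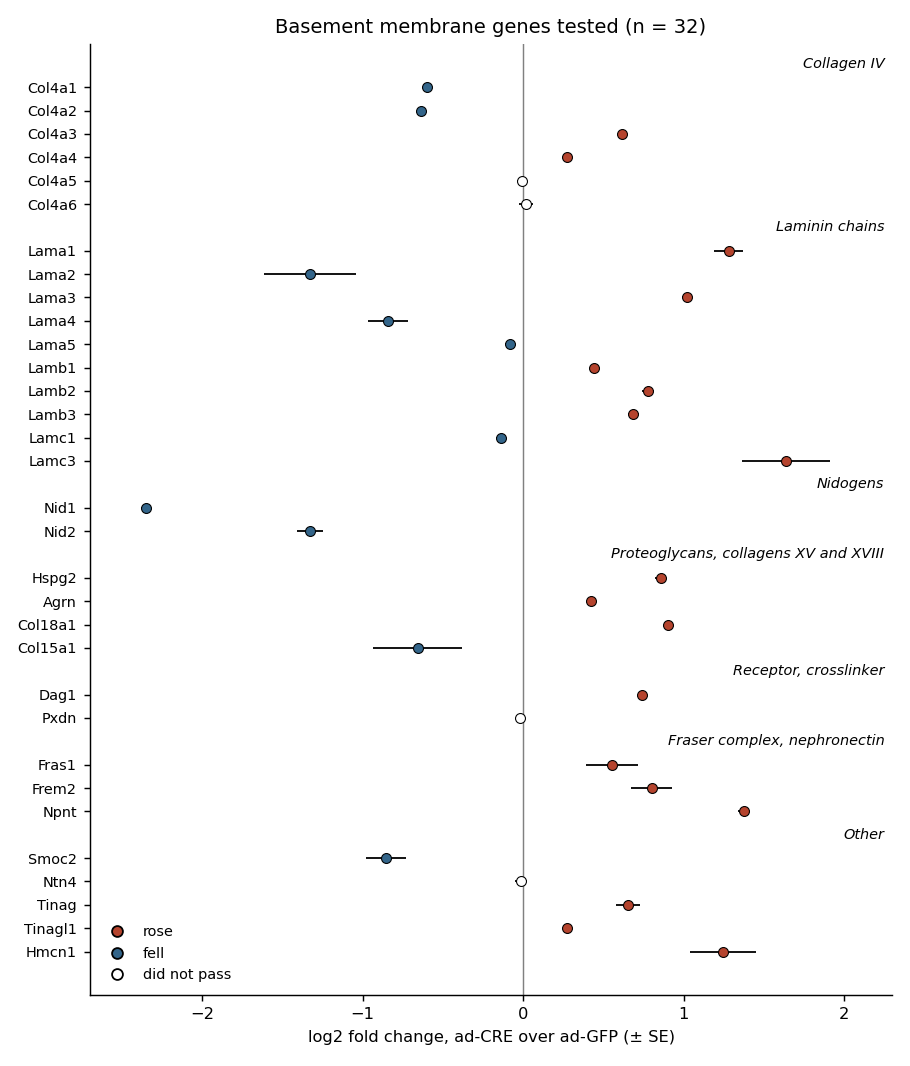
Log2 fold change (ad-CRE over ad-GFP, edgeR, bars ± SE) of the 32 basement membrane genes tested, grouped by role. Filled points passed an adjusted p of 0.05. Col4a1 and Col4a2 lie left of 0 and Col4a3 and Col4a4 right of it, the nidogens lie far left, and the 3 laminin beta chains lie right.

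**Figure D2:**
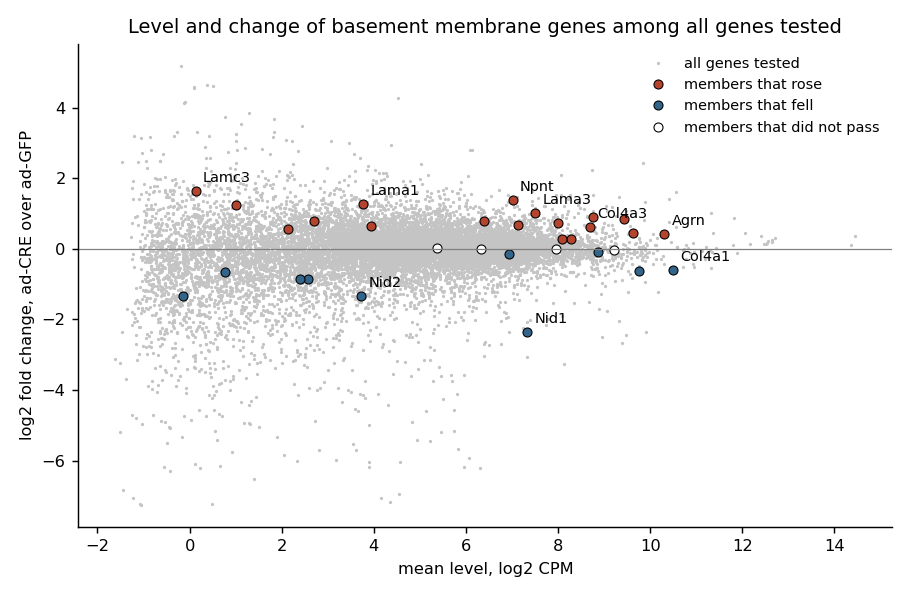
Mean level (log2 CPM over the 8 libraries) and log2 fold change (ad-CRE over ad-GFP) of all 13702 genes tested in grey, with the basement membrane genes as large points. Nid1, at −2.35, is the member farthest from 0, and the members above 8 on the level axis lie within 1 log2 unit of 0.

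Collagen IV, the network-forming collagen, changed by gene pair: Col4a1 and Col4a2 fell, Col4a3 and Col4a4 rose, and Col4a5 and Col4a6 did not pass. Col4a1 (ENSMUSG00000031502, chromosome 8, 11198423 to 11312826, minus strand, GRCm38), a chain of the widespread collagen IV, had 1122, 1163, 1184 and 1097 CPM in the ad-CRE libraries and 1743, 1691, 1698 and 1791 CPM in the ad-GFP libraries. Its partner Col4a2 (ENSMUSG00000031503, chromosome 8, 11312805 to 11449287, plus strand) had 673, 689, 694 and 669 CPM in ad-CRE and 1078, 1025, 1044 and 1087 CPM in ad-GFP. Each ad-CRE library lay below each ad-GFP library for both genes. The log2 fold changes were −0.60 (SE 0.024) for Col4a1 and −0.64 (SE 0.024) for Col4a2, with edgeR adjusted p = 9.85e-20 and 1.05e-20. Groups that do not overlap were seen in 66.2% of all genes tested, ad-CRE being higher in 33.4% and lower in 32.8%.

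Col4a3 (ENSMUSG00000079465, chromosome 1, 82586921 to 82722059, plus strand), a chain of the glomerular collagen IV, had 494.5, 496.5, 498.8 and 509 CPM in ad-CRE and 336.5, 311, 331 and 327 CPM in ad-GFP. Col4a4 (ENSMUSG00000067158, chromosome 1, 82448423 to 82586849, minus strand), its partner in that trimer, had 333.5, 344, 349 and 344 CPM in ad-CRE and 279.8, 279.1, 285 and 291 CPM in ad-GFP. The groups did not overlap for either gene, ad-CRE being higher. Col4a3 rose by 0.61 on the log2 scale (SE 0.026, edgeR adjusted p = 2.93e-19) and Col4a4 by 0.27 (SE 0.026, edgeR adjusted p = 8.26e-11), and Col4a4 did not pass against a fold change of 1.2 (glmTreat adjusted p = 0.298). Col4a5, the chain that joins Col4a3 and Col4a4 in the glomerular trimer, was at 249 ± 7.09 CPM in ad-CRE and 250.6 ± 9.12 CPM in ad-GFP (SD, n = 4 each). Col4a6, its neighbour on the X chromosome, was at 41.3 ± 0.906 CPM in ad-CRE and 40.9 ± 1.56 CPM in ad-GFP. Their log2 fold changes were −0.01 (SE 0.029) and 0.02 (SE 0.046), and the groups overlapped for both.

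**Figure D3:**
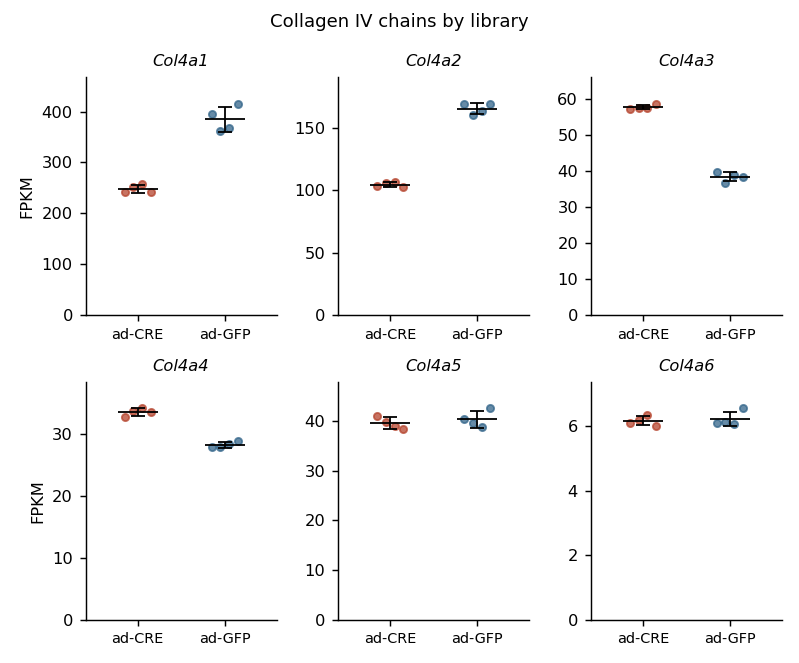
FPKM (reads per length of gene and size of library) of the 6 collagen IV chains in each library, with ad-CRE left and ad-GFP right. Points are libraries and bars the mean ± SD (n = 4), with each vertical axis starting at 0. Col4a1 and Col4a2 are lower in ad-CRE, Col4a3 and Col4a4 higher, and Col4a5 and Col4a6 overlap.

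Levels of different chains were compared as the authors' FPKM, which is per length. In the ad-GFP libraries the order was Col4a1 (385 ± 24.6), Col4a2 (166 ± 4.38), Col4a5 (40.3 ± 1.63), Col4a3 (38.5 ± 1.26), Col4a4 (28.3 ± 0.487) and Col4a6 (6.21 ± 0.224), as mean FPKM ± SD (n = 4). The ranges of Col4a5 and Col4a3 overlapped there. In the ad-CRE libraries Col4a3, at 57.8 ± 0.671 FPKM, lay above Col4a5, at 39.5 ± 1.197 FPKM, in each library, while Col4a1 (248 ± 7.64) and Col4a2 (104.6 ± 1.92) were still the most abundant. Col4a1 and Col4a2 together made up 71.6% to 72.7% of the summed collagen IV FPKM in ad-CRE and 82.6% to 83.4% in ad-GFP. Col4a3 and Col4a4 made up 18.3% to 19.2% in ad-CRE and 9.60% to 10.5% in ad-GFP. The summed FPKM of the 6 chains (of group means) was 489.8 in ad-CRE and 664 in ad-GFP.

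Ratios within head-to-head pairs show how closely partners moved. The log2 ratio of Col4a1 to Col4a2 in CPM was 0.71 to 0.77 in ad-CRE and 0.69 to 0.72 in ad-GFP, a mean difference of 0.035 (exact permutation test, two-sided, p = 0.0857). The log2 ratio of Col4a3 to Col4a4 was 0.52 to 0.57 in ad-CRE and 0.16 to 0.27 in ad-GFP, with no overlap and a mean difference of 0.34. Its p of 0.0286 in the exact permutation test is the smallest that 4 against 4 libraries allow, and it was 0.0571 after Benjamini-Hochberg adjustment over 4 pairs. With that floor the adjusted value could be under 0.05 only if at least 3 of the 4 pairs reached it, so the adjusted value says nothing for or against a difference. For Col4a5 to Col4a6 the mean ratio was 2.59 in ad-CRE and 2.62 in ad-GFP (exact permutation p = 0.429). These 4 ratios, the 4th being that of the nidogens, were added after values of the genes had been seen. The starts of Col4a6 and Col4a5 are 1342 bases apart in RefSeq, against 71 bases between those of Col4a4 and Col4a3 and the overlap of Col4a1 and Col4a2 shown above. An RNA gene on the other strand, C430014B12Rik, covers 5.65% of the Col4a3 exon bases, and its reads cannot be told from those of Col4a3 if strand was not used.

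Of the 10 laminin chains, 6 rose and 4 fell, where 36.8% and 36.3% of all genes did. By class, 2 alpha chains rose and 3 fell, the 3 beta chains rose, and 1 gamma chain rose and 1 fell. Among the alpha chain falls, that of Lama5 depended on single libraries. Laminins are the cell-binding polymer of the basement membrane, and the alpha chain carries the main sites for integrins and dystroglycan. Lama3 (ENSMUSG00000024421, chromosome 18, 12333819 to 12583013, plus strand), the alpha chain of the epithelial adhesion laminin, had 236, 246.5, 243 and 248 CPM in ad-CRE and 120.3, 115.6, 119 and 125.5 CPM in ad-GFP. Each ad-CRE library was above each ad-GFP library, with a fold change of 2.03 (log2 1.02, SE 0.030, edgeR adjusted p = 3.65e-23). Lama5, the alpha chain typical of adult epithelial and glomerular membranes, was at 454 ± 12.6 CPM in ad-CRE and 481 ± 29.5 CPM in ad-GFP (SD, n = 4 each), and the groups overlapped. Its log2 fold change of −0.08 passed in the full set (edgeR adjusted p = 0.0189). It did not pass without ad-CRE replicate 1 (adjusted p = 0.0576), ad-CRE replicate 4 (0.0589), ad-GFP replicate 1 (0.111, where the change was −0.05) or ad-GFP replicate 4 (0.0997).

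The other alpha chains were low. Lama1, the alpha chain of early embryonic laminin, had 21.0, 17.9, 19.3 and 18.8 CPM in ad-CRE and 8.66, 7.25, 9.46 and 6.34 CPM in ad-GFP, and rose 2.43-fold (log2 1.28, SE 0.092, edgeR adjusted p = 1.37e-13). Lama4, an alpha chain of vascular and mesenchymal laminins, had 4.84, 3.80, 3.79 and 4.66 CPM in ad-CRE and 6.91, 7.20, 7.78 and 8.88 CPM in ad-GFP. It fell by 0.84 on the log2 scale (SE 0.124, edgeR adjusted p = 5.02e-07) with no overlap. Lama2, the alpha chain of muscle laminin, rests on 41 reads in ad-CRE and 95 in ad-GFP, with a log2 difference of −1.33 (SE 0.287; edgeR, adjusted p = 0.000143). Its groups did not overlap in CPM but did in FPKM, where limma gave −0.38 (adjusted p = 0.242) with 0.1 added to FPKM before the log2 and −0.07 (adjusted p = 0.365) with 1 added.

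Among beta and gamma chains, Lamb1, the commonest beta chain here, had 924, 911, 916 and 911 CPM in ad-CRE and 678, 673, 674 and 669 CPM in ad-GFP. Replicates of each group lay close together and the groups were well apart, with a log2 difference of 0.44 (SE 0.021; edgeR, adjusted p = 8.34e-18). Lamb3, the beta partner of Lama3 in epithelial adhesion laminin, rose by 0.69, with 173 ± 5.54 CPM in ad-CRE and 107.8 ± 6.11 CPM in ad-GFP (SD, n = 4 each). Lamb2, the beta chain of the mature glomerular laminin, rose by 0.78, with 106 ± 2.04 CPM in ad-CRE and 61.9 ± 2.15 CPM in ad-GFP. Lamc1, the gamma chain shared by most laminins, was at 116 ± 1.36 CPM in ad-CRE and 127.8 ± 5.41 CPM in ad-GFP. It fell by 0.14 on the log2 scale (SE 0.033, edgeR adjusted p = 0.00044) and did not pass against a fold change of 1.2. Lamc3, a rarer gamma chain, had 1.36, 1.77, 1.57 and 1.96 CPM in ad-CRE and 0.331, 0.663, 0.519 and 0.621 CPM in ad-GFP, a log2 difference of 1.64 (SE 0.276; edgeR, adjusted p = 4.62e-06). It rests on 132 and 39 reads. Gm13441 on the opposite strand covers 6.27% of the Lamc3 exon bases. Reads of that gene cannot be told from those of Lamc3 if strand was not used. The same holds for Gm48084, which covers 3.86% of the Lama2 exon bases.

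**Figure D4:**
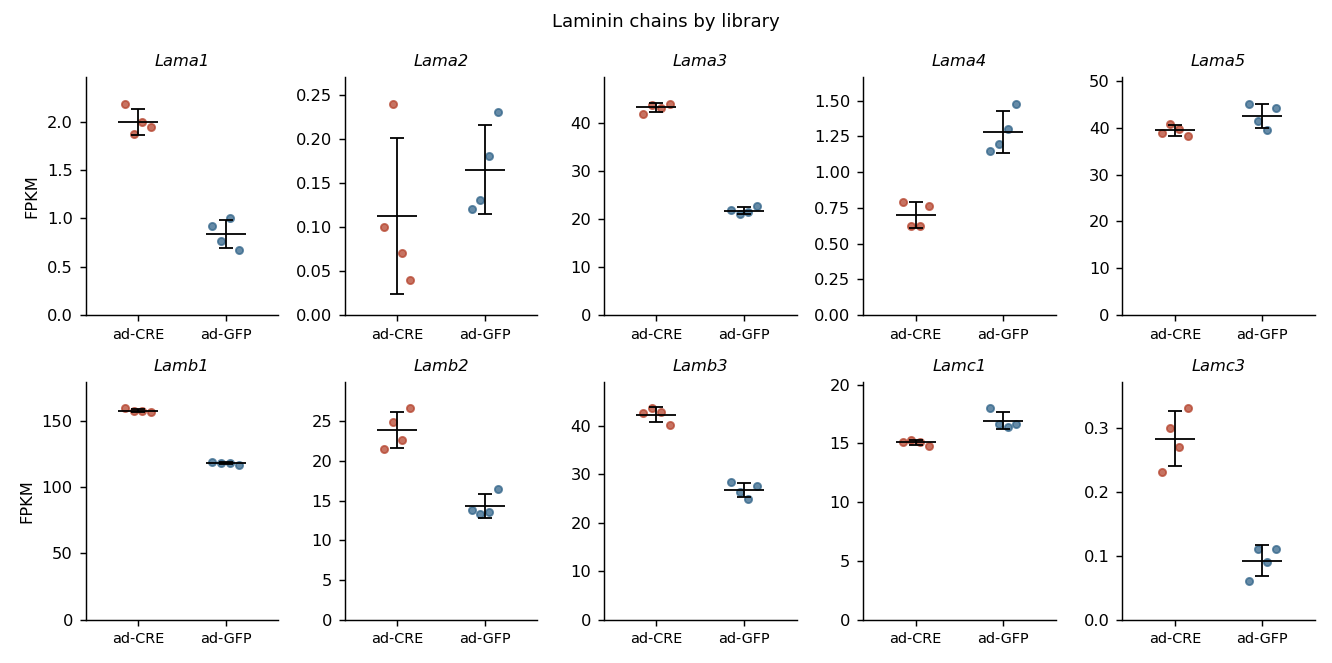
FPKM of the 10 laminin chains in each library, with ad-CRE left and ad-GFP right, points for libraries and bars for the mean ± SD (n = 4). Lama3 and the 3 beta chains are higher in ad-CRE, Lama4 is lower, and Lama2 and Lama5 overlap.

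Per length, the makeup of the alpha chains shifted. Lama3 made up 50.04% to 51.8% of the summed alpha chain FPKM in ad-CRE and 31.5% to 33.9% in ad-GFP, and Lama5 made up 45.0% to 46.7% in ad-CRE and 62.2% to 65.3% in ad-GFP. With counts divided by GENCODE exon length in place of FPKM, Lama3 took 34.9% in ad-CRE and 20.4% in ad-GFP and Lama5 61.4% and 76.8%. Which of these chains was the more abundant in ad-CRE therefore depends on the gene length used, whereas the direction of the shift was the same with both. The beta chains were led by Lamb1, with 70.4% ± 0.717 of their summed FPKM in ad-CRE and 74.2% ± 1.24 in ad-GFP (SD, n = 4 each). Summed over group means, the beta chains reached 224 FPKM in ad-CRE and 159 in ad-GFP.

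The nidogens, glycoproteins that link laminin to collagen IV, both fell, and Nid1 had the largest fall of all 32 members tested. Nid1 (ENSMUSG00000005397, chromosome 13, 13437551 to 13512269, plus strand) had 50.7, 53.8, 52.1 and 54.0 CPM in ad-CRE and 266.5, 262, 264 and 279 CPM in ad-GFP. The highest ad-CRE library was far below the lowest ad-GFP library, and the level was 5.10-fold lower in ad-CRE (log2 fold change −2.35, SE 0.033, edgeR adjusted p = 3.1e-31). Over the alternative settings its log2 fold change was −2.38 to −2.25. Nid2 had 7.87, 7.18, 8.19 and 6.79 CPM in ad-CRE and 20.02, 18.9, 18.8 and 17.9 CPM in ad-GFP, 2.51-fold lower (log2 −1.33, SE 0.080, edgeR adjusted p = 2.5e-15). The opposite-strand gene Rtraf covers 8.45% of the Nid2 exon bases, and was at 107 and 92.7 CPM (means), so the Nid2 counts may hold some of its reads if strand was not used. The log2 ratio of Nid1 to Nid2 averaged 2.81 ± 0.16 in ad-CRE and 3.83 ± 0.097 in ad-GFP, without overlap (exact permutation p = 0.0286, 0.0571 after adjustment over the 4 pairs). Nid1 was well above Nid2 per length in both groups, at 8.55 and 1.52 FPKM in ad-CRE and 44.4 and 3.92 FPKM in ad-GFP (means).

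The heparan sulfate proteoglycans rose together. Hspg2, which encodes perlecan, had 884, 914, 927 and 839 CPM in ad-CRE and 537, 474.5, 458 and 497 CPM in ad-GFP. It rose 1.81-fold (log2 0.86, SE 0.034, edgeR adjusted p = 7.93e-20). Agrn, which encodes agrin, had 1454, 1470, 1457 and 1435 CPM in ad-CRE and 1155, 1049, 1026 and 1110 CPM in ad-GFP, a log2 difference of 0.42 (SE 0.027; edgeR, adjusted p = 7.24e-15). Col18a1, the collagen XVIII chain whose end fragment is endostatin, had 569, 567, 579 and 544 CPM in ad-CRE and 312, 291, 296 and 309.9 CPM in ad-GFP. It rose 1.87-fold (log2 0.90, SE 0.027, edgeR adjusted p = 5.05e-23). For these 3 genes each ad-CRE library lay above each ad-GFP library. Per length, agrin was the more abundant, with 204 ± 2.26 FPKM in ad-CRE and 154.7 ± 8.29 in ad-GFP, against 62.3 ± 2.81 and 35.0 ± 2.42 for perlecan (SD, n = 4).

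Col15a1, the related collagen XV chain, had 1.18, 1.77, 1.71 and 0.633 CPM in ad-CRE and 2.70, 1.123, 2.94 and 1.68 CPM in ad-GFP. The groups overlapped, and the log2 fold change of −0.66 (SE 0.277) had an edgeR adjusted p = 0.0343. It did not pass without ad-CRE replicate 1 (adjusted p = 0.0824), ad-CRE replicate 4 (0.134), ad-GFP replicate 1 (0.136) or ad-GFP replicate 3 (0.157), nor with limma voom (0.0554).

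**Figure D5:**
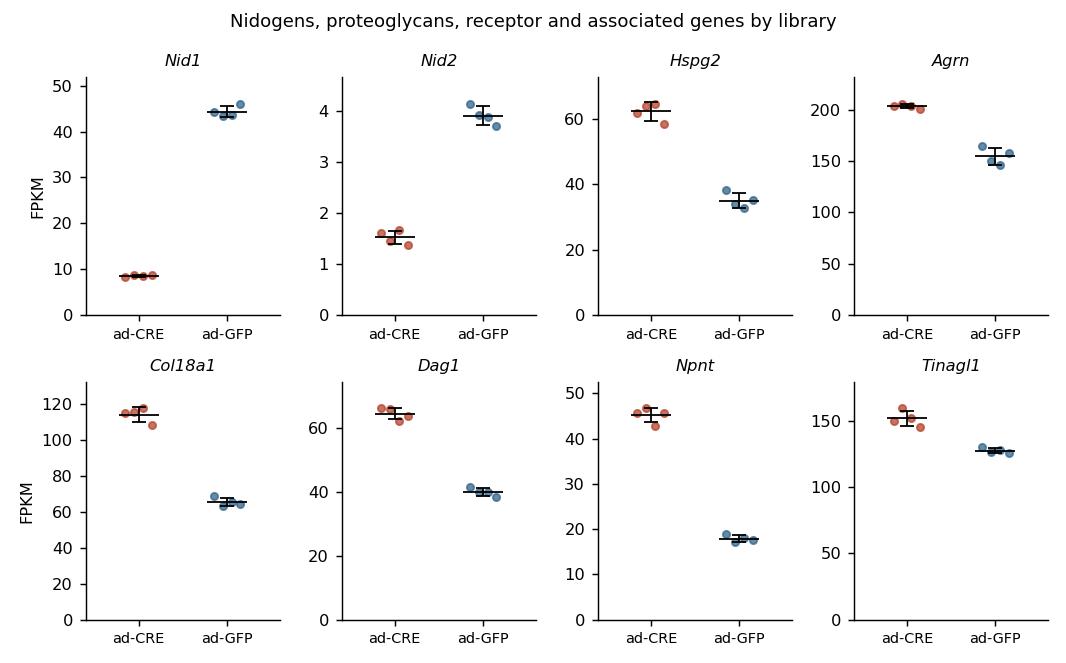
FPKM of the nidogens, perlecan (Hspg2), agrin (Agrn), Col18a1, dystroglycan (Dag1), nephronectin (Npnt) and Tinagl1 in each library, with ad-CRE left and ad-GFP right, points for libraries and bars for the mean ± SD (n = 4). The nidogens are lower and the other 6 genes higher in ad-CRE, with no overlap between groups.

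Dag1, which encodes dystroglycan, the surface receptor for laminin, agrin and perlecan, had 327.5, 323, 308 and 316.5 CPM in ad-CRE and 196, 185, 191 and 189 CPM in ad-GFP. It rose 1.67-fold (log2 0.74, SE 0.028, edgeR adjusted p = 1.65e-20) and the groups did not overlap. Of 13 enzymes that glycosylate dystroglycan so that it binds laminin, 9 rose, 1 fell and 3 missed the threshold (median log2 fold change 0.36). That is 76.9% called, near the 73.1% of all genes. By direction, 36.8% of all genes rose and 36.3% fell. The kinase Pomk rose by 0.84, with 41.1 ± 0.581 CPM in ad-CRE and 23.0 ± 2.31 CPM in ad-GFP (SD, n = 4 each), and the transferase Pomgnt1 by 0.47. Of 10 genes for other receptors of laminin and collagen IV, 7 rose and 3 fell, with a median of 0.44. That is 100% called, where 36.8% of all genes rose and 36.3% fell. Among the falls, the groups did not overlap for the integrin chains Itga6 (log2 fold change −0.22, edgeR adjusted p = 3.08e-06) and Itga7 (−0.47, edgeR adjusted p = 5.21e-07). The fall of the integrin chain Itga8 rests on 60 reads in ad-CRE and 85 in ad-GFP in overlapping groups (edgeR adjusted p = 0.0477). With DESeq2, limma voom, the replicate block or a threshold of 0.01, 2 receptors fell. Itgb4, the integrin beta chain of hemidesmosomes, which bind the Lama3 laminin, was at 250 ± 8.88 CPM in ad-CRE and 112 ± 6.42 CPM in ad-GFP, a log2 difference of 1.15 (SE 0.035; edgeR, adjusted p = 6.06e-23). The integrin alpha chain Itga6 went the other way, with 86.6 ± 3.31 CPM in ad-CRE and 100.8 ± 2.48 CPM in ad-GFP. The collagen receptor Ddr1 rose by 0.87 and Itgb1, the most abundant integrin beta chain of the list, by 0.44. Against a fold change of 1.2, 6 of these receptors rose and 1 fell, and 6 glycosylation enzymes rose and 0 fell. Of all genes, 43.4% passed, 20.6% that rose and 22.8% that fell.

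Pxdn, which encodes peroxidasin, the enzyme that forms the sulfilimine crosslinks of collagen IV, had 600.5, 583, 595 and 581 CPM in ad-CRE and 613, 585, 597.5 and 601 CPM in ad-GFP. The groups overlapped and the log2 fold change was −0.02 (SE 0.023, edgeR adjusted p = 0.394). Among 12 tested of 13 genes for folding and secretion of collagen IV, 2 rose, 9 fell and 1 missed the threshold (median log2 fold change −0.26). That is 91.7% called, against 73.1% of all genes, of which 36.8% rose and 36.3% fell. Serpinh1, the collagen chaperone HSP47, was at 414 ± 4.11 CPM in ad-CRE and 784 ± 8.58 CPM in ad-GFP (log2 fold change −0.92), and Sparc, a collagen-binding glycoprotein, at 646 ± 24.0 and 1240 ± 56.7 CPM (−0.94). Against a fold change of 1.2, 0 of these genes rose and 5 fell, where 20.6% and 22.8% of all genes did. Of the 6 collagen IV proteases and inhibitors, 2 rose, 2 fell and 2 missed the threshold (median 0.03). That is 66.7% called, below the 73.1% of all genes. The gelatinase gene Mmp9 was at 37.8 ± 3.31 CPM in ad-CRE and 104.6 ± 2.82 CPM in ad-GFP (log2 fold change −1.47), and the inhibitor genes Timp1 and Timp3 had −0.95 and 0.33.

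Npnt, which encodes nephronectin, a ligand of the integrin that drives ureteric bud outgrowth in the developing kidney, had 188, 191, 181 and 188 CPM in ad-CRE and 75.4, 67.9, 73.8 and 71.7 CPM in ad-GFP. Each ad-CRE library was more than 2-fold above each ad-GFP library, and the log2 fold change was 1.37 (SE 0.034, edgeR adjusted p = 4.19e-25). Fras1, Frem1 and Frem2 encode the Fraser complex, which anchors epithelium to mesenchyme and is needed with nephronectin in kidney development. Frem2 had 8.37, 7.70, 6.94 and 9.91 CPM in ad-CRE and 5.11, 3.67, 4.96 and 5.09 CPM in ad-GFP, a log2 difference of 0.80 (SE 0.128; edgeR, adjusted p = 1.91e-06). Fras1 was at 5.25 ± 1.14 CPM in ad-CRE and 3.58 ± 0.83 CPM in ad-GFP (SD, n = 4 each). Its groups overlapped, and its log2 fold change of 0.55 passed in counts (edgeR adjusted p = 0.00298). In limma on log2 FPKM it was 0.11 (adjusted p = 0.11) with 1 added to FPKM and 0.38 (adjusted p = 0.0931) with 0.1 added. Frem1 was near 0 in all 8 libraries.

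Of the remaining members, 3 rose, 1 fell, 1 did not pass and Smoc1 was not tested, where 36.8% of all genes rose and 36.3% fell. Tinagl1, which encodes a secreted protein related to the tubulointerstitial nephritis antigen, had 292.5, 310, 297 and 284 CPM in ad-CRE and 249, 242, 245 and 242.5 CPM in ad-GFP. It rose by 0.28 on the log2 scale (SE 0.028, edgeR adjusted p = 4.31e-10), but did not pass against a fold change of 1.2 (glmTreat adjusted p = 0.278). Tinag itself, a tubular basement membrane antigen, was at 18.8 ± 0.965 CPM in ad-CRE and 12.02 ± 1.28 CPM in ad-GFP, a log2 fold change of 0.65. Hmcn1, which encodes the very large matrix protein hemicentin, had 2.53, 2.81, 3.10 and 2.94 CPM in ad-CRE and 1.61, 0.97, 1.04 and 1.118 CPM in ad-GFP. The groups did not overlap and the log2 fold change was 1.24 (SE 0.204, edgeR adjusted p = 2.94e-06). Smoc2, a calcium-binding matricellular gene, had 3.71, 4.16, 3.10 and 3.97 CPM in ad-CRE and 6.63, 6.84, 6.17 and 7.33 CPM in ad-GFP, and fell by 0.85 on the log2 scale (SE 0.126, edgeR adjusted p = 5e-07). Ntn4, which encodes a netrin that binds laminin gamma chains, was at 79.7 ± 3.42 CPM in ad-CRE and 80.5 ± 0.992 CPM in ad-GFP, with a log2 fold change of −0.01 (SE 0.037).

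Of 13 further basement membrane components, 7 were tested, of which 2 rose, 4 fell and 1 missed the threshold (median −0.44). With so few genes, the 85.7% called is not far from the 73.1% of all genes, of which 36.8% rose and 36.3% fell. Ntn1, another netrin gene, was at 46.0 ± 2.51 CPM in ad-CRE and 22.2 ± 0.321 CPM in ad-GFP (SD, n = 4 each; log2 fold change 1.05). Hmcn2, the other hemicentin gene, was at 2.58 ± 0.308 CPM in ad-CRE and 7.90 ± 0.877 CPM in ad-GFP. Its log2 fold change of −1.60 (SE 0.133; adjusted p in edgeR = 4.45e-12) and the rise of Hmcn1 go in opposite directions. Fbln2, an abundant fibulin gene that was at 639 and 575 CPM (means), had 0.15.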

How the data were processed

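The authors deposited 1 table with whole read counts and FPKM values (reads relative to gene length and sequencing depth) for each library, per the file headers. It also holds, per the file headers, the authors' mean FPKM, log2 fold change, p-value and FDR, which were not used here. Per the labels' protocols, Qiagen RNeasy RNA went into SMARTer mRNA-Seq libraries. GRCm38 (mm10) is the build in the submitters' processing notes, whereas no source names the aligner, the counter, the annotation or whether strand was used. The main test ran in edgeR 4.0.16 under R 4.3.3: filterByExpr, TMM factors, the quasi-likelihood test with the group as the only term and Benjamini-Hochberg adjustment over the 13702 genes that passed the filter (adjusted p under 0.05). CPM values use library sizes multiplied by the TMM factors. The SE is the size of the log2 fold change divided by the square root of F. The common biological coefficient of variation was 0.032, so small differences passed. Alternatives used DESeq2 1.42.0, limma 3.58.1 (voom, and log2 of FPKM plus a pseudocount of 1 or 0.1) and glmTreat. The edgeR script was tested on simulated counts in which 200 genes changed. That is a far smaller part than in these data, so the simulation does not cover differences as wide as those here. The members and lists were chosen with earlier results of these data known. Values in each library are given for the 8 members of highest mean FPKM, for the 12 of largest change with a mean of at least 1 CPM, and for Col4a3, Col4a4 and Col15a1, which were added. In each other list the genes named come from the 2 of smallest p and the 1 of highest FPKM. A few defining markers at or near 0 reads are also named. Krt18, Itga6, Itga7, Itga8, Umod, Aqp1, Pax8, Dcn and the tubular markers that fell were named after their values were seen. Chi-square per degree of freedom between replicates was 1.71 to 3.24, above sampling noise. Coordinates and exon lengths are from GENCODE M21 (GRCm38) and sequences from RefSeq. Ratios were tested with scipy 1.17.1 and figures drawn with matplotlib 3.10.9.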

Additional observations from a re-analysis of the deposited data

Results flagged for a closer look

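In 3 of 68 groups of 4 libraries, 1 library lay far from the other 3 by Dixon's test, where chance gives about 1 in 20 groups. Col4a6 was at 43.2 CPM in ad-GFP replicate 4, against 40.01 to 40.3 CPM in the other ad-GFP libraries. Frem2 was at 3.67 CPM in ad-GFP replicate 2, against 4.96 to 5.11 CPM in the others. Frem1 was at 0.459 CPM (9 reads) in ad-GFP replicate 2, against 0 reads in the other ad-GFP libraries.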

How the results depend on the processing

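Of the counts, medians and chain shares, 302 values under alternative settings stayed close to the main one and 19 moved. A count within 1.5-fold of the main one was taken as close, and a median or share within the spread between libraries. Some values, such as the median with a threshold of 0.01, come from the main fit and could not move. The counts of 18 members that rose and 10 that fell became 18 and 8 to 10 when 1 library was left out. With a filter of 5 CPM in 4 libraries, 27 members were tested, of which 15 rose and 8 fell. Of the 10972 genes tested with that filter, 4210 rose and 4156 fell. The median log2 fold change of tested members (0.35) was 0.29 with no filter beyond 1 read, 0.25 with 5 CPM in 4 libraries, 0.20 on the log2(FPKM + 1) scale and 0.276 to 0.365 with 1 library left out. Against a fold change of 1.2, 2821 genes rose and 3121 fell, 1 receptor, 0 glycosylation enzymes and 5 folding and secretion genes fell, and 0 of those folding genes and 1 of the further components rose. With 5 CPM in 4 libraries 2 further components fell, and 1 protease or inhibitor gene rose with either FPKM pseudocount. With counts per exon length, the share difference (ad-CRE minus ad-GFP) was −12.1 points for Col4a1 and Col4a2 (main −10.9), 9.61 for Col4a3 and Col4a4 (8.59), 14.6 for Lama3 (17.9) and −15.4 for Lama5 (−17.8). Col15a1 lost its call under 9 settings, Lama5 under 6, Lama2 and Fras1 under 2 each, and Col4a4, Lamc1 and Tinagl1 under 1 each. The 3 uncalled members that follow changed sign. Col4a5 ranged from −0.026 to 0.017 and Ntn4 from −0.033 to 0.01 with 1 library left out. Col4a5 was at 0.009 with no filter, 0.001 without ad-CRE replicate 3, 0.007 without ad-CRE replicate 4 and 0.017 without ad-GFP replicate 4. Col4a6 was at −0.009 with total counts only, −0.007 with 5 CPM, −0.009 on log2(FPKM + 1) and −0.01 on log2(FPKM + 0.1). Ntn4 was at 0.002 with no filter and 0.01 without ad-CRE replicate 3. On the log2(FPKM + 1) scale, where the added 1 shrinks low genes, Lamc3 had 0.23, Hmcn1 0.16, Frem2 0.26, Lama1 0.71, Lama4 −0.43 and Smoc2 −0.54. With the replicate number as a block, 18 members rose and 10 fell, as without it, and 2 receptors fell in place of 3. The counts of the other partner lists were the same. Same-numbered libraries did not deviate together over all genes tested (correlations −0.063 to 0.066). With 4 pairs and the counting noise of low genes, this check cannot exclude that the numbers pair the samples. Members with fewer than 200 reads in a group (Col15a1, Lama2, Lamc3, Hmcn1, Smoc1, Frem1) are limited by depth.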
